A study of Mus musculus with 10 samples.

Results

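The Ly49 receptors are lectin-like receptors encoded by the Klra genes, and 9 of them were followed here among the 45706 genes of the table: Klra1, Klra2, Klra3, Klra4, Klra7, Klra8, Klra9, Klra13-ps and Klra17. The members were chosen by gene name, and all 9 passed the filter on low counts. The 5 remaining Klra genes of the annotation (Klra5, Klra6, Klra10, Klra11-ps and Klra14-ps) did not pass it. Transcripts were counted in bulk RNA from subcutaneous melanomas of 8-week-old C57BL/6 mice, collected on day 4. All tumors grew from 1 BrafV600E-driven melanoma line. There were 4 tumors of the COX-competent parental cells in untreated hosts (Ptgs+/+), 3 tumors of cells made deficient for Ptgs1 and Ptgs2 by CRISPR/Cas9 in untreated hosts (Ptgs-/-), and 3 tumors of the deficient cells in hosts depleted of NK cells. Depleted mice were given anti-NK1.1 (200 µg) together with anti-asialo GM1 (30 µg) at implantation and once more on day 2, per the labels. No COX-competent tumors of NK cell-depleted mice were analysed here, and each genotype is a single cell line, so COX loss and other differences between the lines cannot be told apart.

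Ly49 receptors sit on mouse NK cells and some other lymphocytes, where most of them bind MHC class I molecules. Inhibitory members carry a tyrosine motif that recruits the phosphatases Ptpn6 and Ptpn11, while activating members lack it and signal through the adaptor Tyrobp (DAP12). Individual NK cells express different, overlapping sets of members. Klra1 (Ly49A), Klra3 (Ly49C), Klra7 (Ly49G) and Klra9 (Ly49I) are inhibitory, Klra4 (Ly49D) and Klra8 (Ly49H, the receptor for a mouse cytomegalovirus protein) are activating, and Klra13-ps is a pseudogene. Klra2 (Ly49B) and Klra17 (Ly49Q) are known from myeloid cells and plasmacytoid dendritic cells and were kept apart as contrasts.

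The genes lie on the minus strand of chromosome 6 in GRCm38 (coordinates of GENCODE M21), with 8 members in 1 stretch from Klra17 (chr6:129831154-129876672) to Klra1 (chr6:130363917-130386874) and Klra2 apart from it (chr6:131219223-131247362). Because the genes are close copies, the last 100 coding bases of 5 members are shown, from the GENCODE M21 transcripts and all within the last coding exon. These libraries were made from transcript 3′ ends, and further annotated bases of each gene lie between those ends and the bases shown. Capitals mark bases not matched to the same base of Klra9 in a pairwise alignment.
Klra9, chr6:130178993-130179092: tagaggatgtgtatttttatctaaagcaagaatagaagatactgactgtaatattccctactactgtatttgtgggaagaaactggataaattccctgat
Klra3, chr6:130323607-130323706: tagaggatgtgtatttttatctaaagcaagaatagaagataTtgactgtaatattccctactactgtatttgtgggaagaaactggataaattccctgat
Klra8, chr6:130115539-130115638: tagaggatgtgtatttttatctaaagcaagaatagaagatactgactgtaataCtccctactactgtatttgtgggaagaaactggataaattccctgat
Klra7, chr6:130218903-130219002: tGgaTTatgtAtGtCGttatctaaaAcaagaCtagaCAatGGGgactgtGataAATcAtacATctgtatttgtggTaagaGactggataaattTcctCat
Klra4, chr6:130044042-130044141: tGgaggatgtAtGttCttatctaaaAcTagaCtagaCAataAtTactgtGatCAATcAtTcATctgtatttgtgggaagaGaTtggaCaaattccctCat
Klra3 and Klra8 each differed from Klra9 at 1 of these 100 bases, whereas Klra7 differed at 25 and Klra4 at 24. Over the whole coding sequence, Klra3 and Klra9 were 95.9% identical, Klra8 and Klra9 91.9%, and Klra1 and Klra4 88.0%. The median over the 28 pairs of the 8 protein-coding members was 76.3% and the lowest value 59.9%, for Klra2 and Klra4.

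How far a read could be shared was measured in windows of 60 bases over the last 400 bases of each annotated transcript. The windows were searched for in the GENCODE M21 transcripts, so introns and unannotated sequence were not covered. For Klra2, Klra4 and Klra17, 100% of the windows were found in no other gene. The share was 95.2% for Klra1, of which 31 of 644 windows also occur in Klra4, and 91.8% for Klra8. It was 80.8% for Klra13-ps and 78.9% for Klra7, which shared windows with each other, and 75.2% for Klra3 and 69.5% for Klra9. No 60-base window of any member was found in an annotated transcript of a gene outside the Klra family. With windows of 40 bases, the shares were lower, at 45.3% for Klra9, 50.9% for Klra3, 65.5% for Klra13-ps, 65.9% for Klra7, 69.8% for Klra8 and 89.0% for Klra1. Klra4 was then at 97.2%, sharing windows with Klra7 and Klra13-ps, Klra17 at 100%, and Klra2 at 97.9%, with 15 windows also found outside the family. Counts of Klra3, Klra8 and Klra9, and of Klra7 and Klra13-ps, are therefore uncertain between these copies, while the 3′-end windows of Klra4 were shared only at the shorter length. Low counts of Klra1 are uncertain too, as some of its windows occur in Klra4. Klra1 had 2 to 37 counts per library and Klra4 1002 to 3235.

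**Figure D1:**
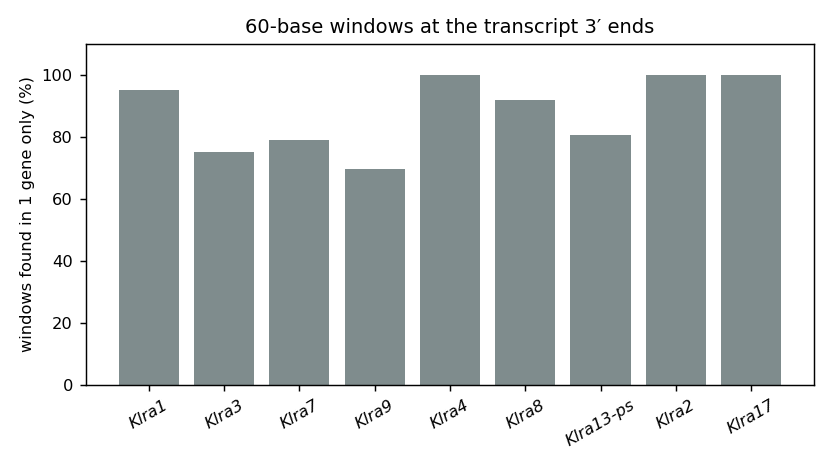
Share of 60-base windows at the annotated 3′ ends (last 400 bases of each transcript) that occur in annotated transcripts of 1 gene only. It is given in percent on the y axis, for each of the 9 Ly49 genes on the x axis. Klra9 has the lowest share, 69.5%, and Klra2, Klra4 and Klra17 reach 100%.

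The 250 bases upstream of the annotated starts (RefSeq, GRCm38.p6, minus strand, written in the direction of transcription) were available for 8 members, all but Klra13-ps. Where a gene had several annotated starts, the most upstream was taken, and the others were not examined. They are shown for the 2 pairs most alike and for the myeloid contrast Klra2. Capitals mark TTTCCTCTTTT, the longest run of letters found in the promoters of 7 of the 8 members.
Klra4, chr6:130067272-130067521: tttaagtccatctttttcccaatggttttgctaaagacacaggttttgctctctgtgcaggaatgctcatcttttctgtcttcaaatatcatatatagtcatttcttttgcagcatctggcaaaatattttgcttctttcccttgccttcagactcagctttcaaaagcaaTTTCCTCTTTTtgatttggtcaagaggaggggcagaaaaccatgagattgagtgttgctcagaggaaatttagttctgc
Klra8, chr6:130129899-130130148: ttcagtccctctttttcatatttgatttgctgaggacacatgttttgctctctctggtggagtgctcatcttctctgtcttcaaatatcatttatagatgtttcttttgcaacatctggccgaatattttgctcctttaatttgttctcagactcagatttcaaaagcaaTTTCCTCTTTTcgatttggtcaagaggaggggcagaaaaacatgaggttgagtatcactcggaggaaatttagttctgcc
Klra9, chr6:130193113-130193362: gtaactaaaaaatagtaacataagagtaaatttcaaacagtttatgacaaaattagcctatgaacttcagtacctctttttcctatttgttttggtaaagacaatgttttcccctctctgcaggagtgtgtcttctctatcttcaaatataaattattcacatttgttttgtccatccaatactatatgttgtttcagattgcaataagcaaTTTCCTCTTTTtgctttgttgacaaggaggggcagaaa
Klra3, chr6:130337627-130337876: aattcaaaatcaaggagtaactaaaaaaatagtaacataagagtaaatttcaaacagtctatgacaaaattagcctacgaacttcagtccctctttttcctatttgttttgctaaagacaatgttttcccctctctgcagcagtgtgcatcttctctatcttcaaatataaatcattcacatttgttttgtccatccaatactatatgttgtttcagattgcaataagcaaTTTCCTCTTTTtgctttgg
Klra2, chr6:131247363-131247612: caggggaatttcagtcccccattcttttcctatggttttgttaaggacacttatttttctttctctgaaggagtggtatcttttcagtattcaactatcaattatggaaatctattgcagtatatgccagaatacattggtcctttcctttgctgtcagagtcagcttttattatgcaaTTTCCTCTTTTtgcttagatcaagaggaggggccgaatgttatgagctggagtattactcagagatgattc
On both strands, this run was present in 0.128% of the 32851 promoters of the table, and among the members it was lacking only upstream of Klra1. It was picked from these sequences, so its frequency among the members is a description. The promoters of Klra4 and Klra8 were 84.5% identical and those of Klra3 and Klra9 83.3%. The letters TATAAA or TTTATA occurred upstream of Klra3, Klra8 and Klra9, beside 12.4% of all promoters. TGTGGT or ACCACA, a RUNX motif, occurred upstream of Klra1 alone (14% of all promoters), and CTTTGA or TCAAAG, a TCF/LEF motif, upstream of Klra7 alone (13.8%). TGANTCA, an AP-1 motif, occurred in no member promoter (6.75%).

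The libraries held 8150556 to 12839174 counts, and a floor of 3 counts in a library corresponded to 0.234 to 0.368 CPM (counts scaled to a library total of 1000000). Ptgs2 was at 94.4 to 347 CPM in Ptgs+/+ tumors and 27.0 to 74.8 CPM in Ptgs-/- tumors (log2 fold change -2.62, adjusted p = 0.00229), and Ptgs1 at 152 ± 17.5 CPM (SD, n = 4) and 94.0 ± 15.0 CPM (SD, n = 3). Host cells carry intact copies of both genes and the libraries read 3′ ends, so these levels do not test the edit. Ncr1, which encodes the NK cell receptor NKp46, gave counts of 11, 7, 12 and 11 (Ptgs+/+), 20, 48 and 77 (Ptgs-/-), and 0 in all 3 NK cell-depleted tumors. Of the 9 NK cell markers tested, 7 were called higher in Ptgs-/- than in Ptgs+/+ tumors. Their summed level was 23.2 to 53.8 CPM in Ptgs+/+, 104 to 232 CPM in Ptgs-/- and 15.2 to 18.2 CPM in NK cell-depleted tumors. Replicates 4 of Ptgs+/+ and 3 of Ptgs-/- carry a different code in their titles from the other 8 libraries. The titles do not say what this code stands for, and it is called the experiment code here.

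The first comparison asked whether COX loss in the melanoma cells went with a change of Ly49 transcripts in hosts with NK cells. The 4 inhibitory members, the activating Klra8 and the pseudogene were higher in Ptgs-/- tumors, by between 3.32-fold (Klra1) and 13.9-fold (Klra13-ps) in pooled counts, whereas the activating Klra4 had lower counts in them. In edgeR's quasi-likelihood test, 6 of the 9 members were called higher (adjusted p no higher than 0.05, with a log2 fold change of 1.5 or more in size), beside 3.14% of the 14550 genes tested, and DESeq2 also called 6. None was called lower by either tool, beside 1.01% of genes in edgeR, and 1 member, Klra4, was lower at an unadjusted p under 0.05. The 6 were Klra1, Klra3, Klra7, Klra8, Klra9 and Klra13-ps. By the adjusted p alone, 7 members were higher, beside 12.1% of genes, and 1 lower, beside 11%. The libraries of the 2 groups did not overlap for 6 members that were higher, beside 18.1% of genes, and 1 that was lower, beside 12.5%. The median log2 fold change over the 9 members was 2.41, and over all genes tested -0.0060. This median and the counts of members higher in Ptgs-/- tumors, against either other group, are descriptions: with the Ptgs-/- libraries of hosts with NK cells left out, only 3 of the 9 members (Klra2, Klra4 and Klra17) pass the filter on low counts. Fewer cells of a type and less RNA per cell cannot be told apart in these bulk samples.

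**Figure D2:**
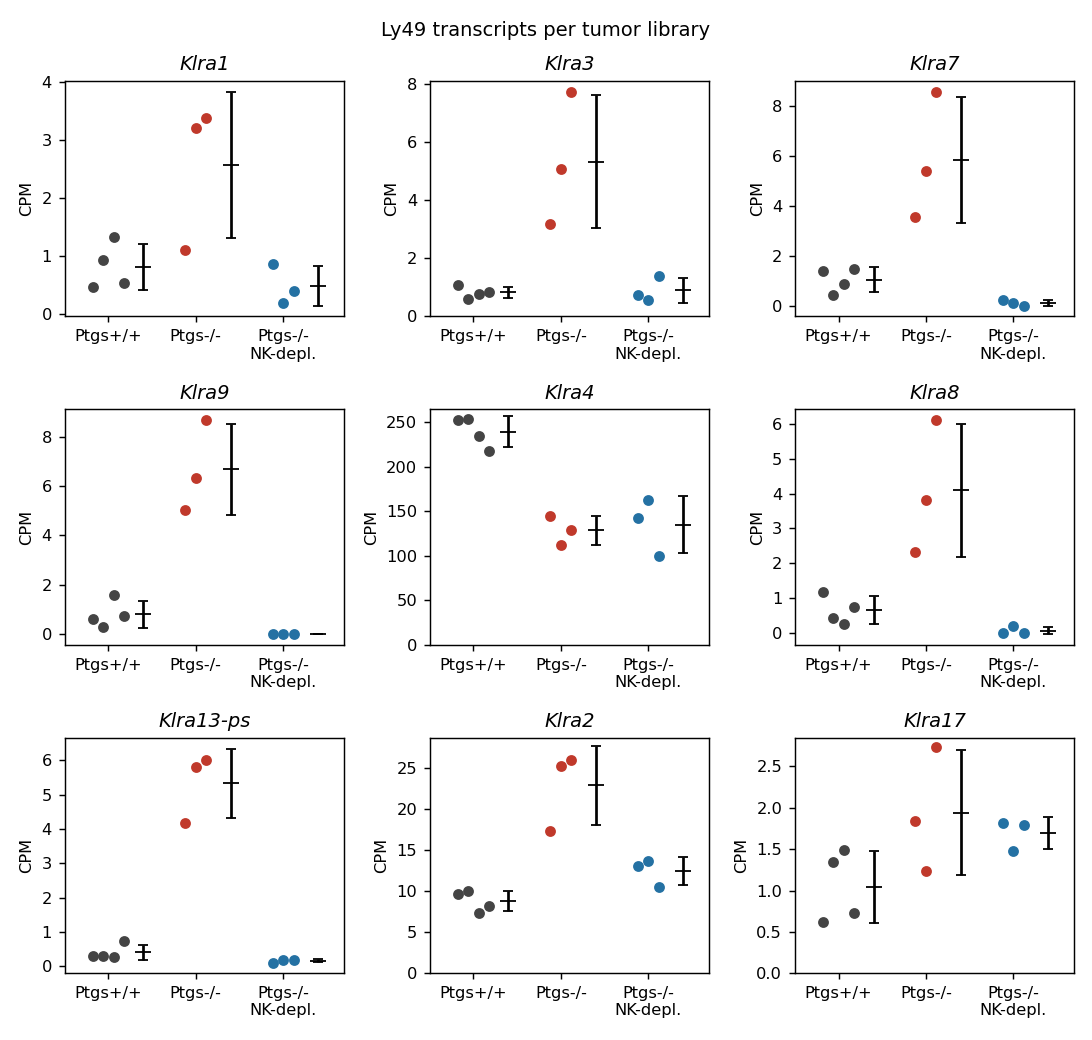
Level of each Ly49 gene in CPM (y axis, linear, a separate scale for each gene) in every tumor library, by group (x axis). Points are libraries and bars are the mean ± SD. Klra4 reaches 254 CPM and is highest in Ptgs+/+ tumors, while in each of the other 8 genes the highest library is from a Ptgs-/- tumor with NK cells.

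The second comparison asked whether the Ly49 transcripts of Ptgs-/- tumors went with the presence of NK cells. Here 5 members were called higher in hosts with NK cells, beside 0.323% of genes tested. These were Klra3, Klra7, Klra8, Klra9 and Klra13-ps, and DESeq2 called 6. None was lower by edgeR (beside 0.825%), by DESeq2 or at an unadjusted p under 0.05. The same 5 passed the adjusted p alone, beside 0.515% of genes higher and 0.921% lower. Libraries did not overlap for 7 members, all higher, beside 10.4% of genes higher and 7.16% lower. The third comparison set the NK cell-depleted Ptgs-/- tumors against Ptgs+/+ tumors of hosts with NK cells. Klra7 and Klra9 were called lower in the depleted tumors, 2 of 9 members beside 0.701% of genes tested, and DESeq2 called 3. Klra7 and Klra9 pass the filter on low counts only through the Ptgs-/- libraries of hosts with NK cells. The counts of members lower in this comparison are therefore descriptions. None was called higher by either tool (2.01% of genes by edgeR), and Klra2 alone was higher at an unadjusted p under 0.05. By the adjusted p alone 3 were lower, beside 5.87%, and none higher, beside 6.63%. Libraries did not overlap for 5 members that were lower, beside 12% of genes, and for 1 that was higher, Klra2, beside 15.1%. The 3 comparisons share samples by pairs, each group entering 2 of them, so their results are not independent of each other.

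**Figure D3:**
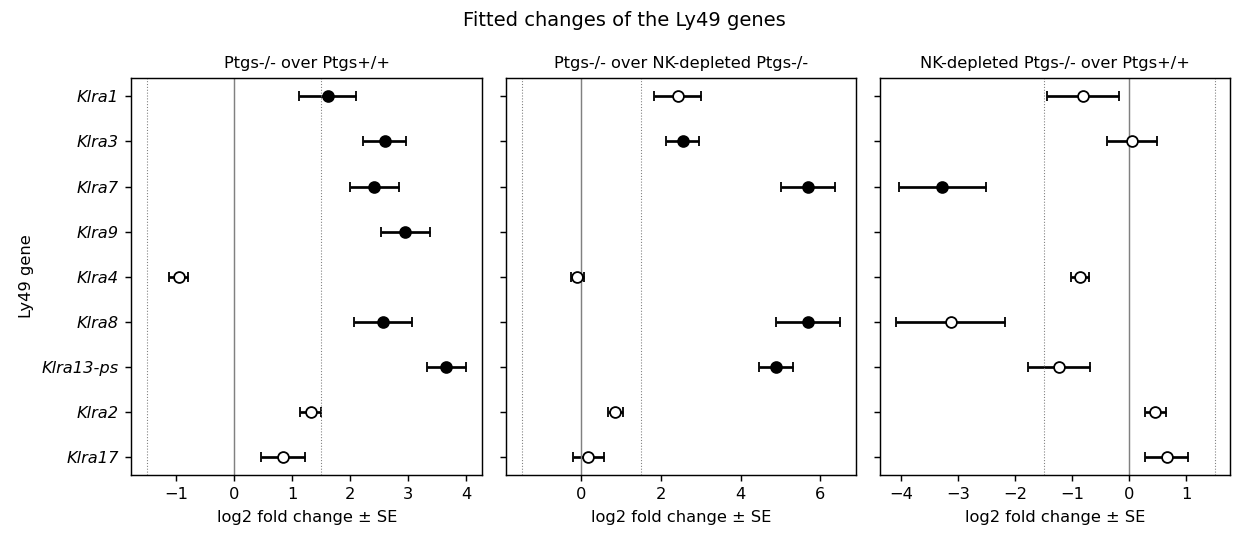
Fitted log2 fold change ± SE (x axes) for each Ly49 gene (y axis) in the 3 comparisons, with filled points for called genes and dotted lines at the fold minimum of 1.5. Klra9 is left out of the 2 comparisons with NK cell-depleted tumors, where its libraries are at 0, and Klra4 is the only gene below 0 in the comparison of Ptgs-/- with Ptgs+/+.

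Among the inhibitory members, the counts of Klra9 (chr6:130178675-130193112) were 8, 3, 18 and 7 (Ptgs+/+), 41, 61 and 95 (Ptgs-/-), and 0, 0 and 0 (NK cell-depleted). The 3 groups did not overlap. The mean was 0.811 ± 0.543 CPM (SD, n = 4) in Ptgs+/+ and 6.67 ± 1.84 CPM (SD, n = 3) in Ptgs-/- tumors, a log2 fold change of 2.95 ± 0.424 (SE, adjusted p = 0.00134). Taken against the floor of 3 counts per library, Klra9 was at least 22.3-fold lower in NK cell-depleted than in Ptgs-/- tumors (adjusted p = 0.00163) and at least 2.72-fold lower than in Ptgs+/+ tumors (adjusted p = 0.00969).

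For Klra7 (chr6:130218605-130233322), 18, 4, 10 and 14 counts were found in Ptgs+/+ tumors, 29, 52 and 94 in Ptgs-/- tumors, and 2, 1 and 0 after NK cell depletion. In CPM the 3 groups were again separate, with the depleted tumors lowest. Ptgs-/- exceeded Ptgs+/+ tumors by a log2 fold change of 2.41 ± 0.425 (SE, adjusted p = 0.00234). Pooled over libraries, the level was 61.3-fold higher in Ptgs-/- than in depleted tumors (exact 95% counting interval 20.6 to 300.2, adjusted p = 0.00177). Klra7 was also lower in depleted than in Ptgs+/+ tumors, with a log2 fold change of -3.28 ± 0.765 (SE, adjusted p = 0.0164). This last call was lost without NK cell-depleted replicate 2 (adjusted p = 0.0663) or replicate 3 (0.0729), while without replicate 1 the log2 fold change was -4.18. Without that replicate 1, the fitted log2 fold change of Ptgs-/- over depleted tumors went from 5.69 to 6.59.

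Klra3 (chr6:130323289-130337574) was counted 14, 6, 9 and 8 times in Ptgs+/+ and 26, 49 and 85 times in Ptgs-/- tumors. Where Klra9 was at 0, in the NK cell-depleted tumors, Klra3 had 7, 6 and 14 counts. The Ptgs-/- libraries stood above both other groups, which overlapped each other. Its log2 fold change was 2.59 ± 0.368 over Ptgs+/+ (SE, adjusted p = 0.000709) and 2.54 ± 0.408 over depleted tumors (SE, adjusted p = 0.00801), the latter at an adjusted p of 0.0743 in the libraries of the first experiment code alone. Between depleted and Ptgs+/+ tumors it was 0.051 ± 0.442 (SE, adjusted p = 0.958).

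Klra1 was the least abundant of the inhibitory members in Ptgs-/- tumors, at 6, 9, 15 and 5 counts (Ptgs+/+), 9, 31 and 37 (Ptgs-/-) and 8, 2 and 4 (NK cell-depleted). Ptgs-/- replicate 1 lay within the range of the Ptgs+/+ libraries, so these groups overlapped. Over Ptgs+/+ tumors the log2 fold change was 1.61 ± 0.498 (SE, adjusted p = 0.0372). The call was lost without Ptgs+/+ replicate 1 (adjusted p = 0.0917), replicate 2 (0.0690) or replicate 4 (0.0822), without Ptgs-/- replicate 2 (0.127) or replicate 3 (0.121), with the experiment code as a term (0.0584) and in the first code alone (0.201). Against depleted tumors the log2 fold change was 2.41 ± 0.596 (SE, adjusted p = 0.0899), and 3.09 without depleted replicate 1. Klra1 was called there without Ptgs-/- replicate 1 (0.0234), by DESeq2 (0.0246), with no filter on low counts (0.0125) and by the likelihood ratio test (0.00483).

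Klra8 (chr6:130115226-130129898) is the activating member whose last coding bases are close to those of Klra3 and Klra9. It gave 15, 4, 3 and 7 counts in Ptgs+/+ tumors, 19, 37 and 67 in Ptgs-/- tumors, and 0, 2 and 0 after depletion. In CPM no library of 1 group reached into another, but the nearest depleted and Ptgs+/+ libraries held 2 and 3 counts, at the floor. Its log2 fold change over Ptgs+/+ was 2.57 ± 0.503 (SE, adjusted p = 0.00414). Pooled counts were 64.6-fold higher in Ptgs-/- than in depleted tumors (exact 95% counting interval 17.5 to 540, adjusted p = 0.00384), and the fitted log2 fold change of 5.70 went to 8.36 without depleted replicate 2, which held both counts. Between depleted and Ptgs+/+ tumors the log2 fold change was -3.13 ± 0.959 (SE, adjusted p = 0.0544). It was called without Ptgs+/+ replicate 3 (0.0329), without Ptgs-/- replicate 1 (0.0436), by DESeq2 (0.0363), with no filter on low counts (0.0199) and by the likelihood ratio test (0.00405). Without depleted replicate 2 the fitted value was -5.80 (adjusted p = 0.0566), which is no bound, as the depleted libraries are then at 0.

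The pseudogene Klra13-ps (chr6:130290878-130306428) had the largest fitted rise in Ptgs-/- over Ptgs+/+ tumors among the members. Its counts were 4, 3, 3 and 7 (Ptgs+/+), 34, 56 and 66 (Ptgs-/-), and 1, 2 and 2 (NK cell-depleted). The Ptgs-/- libraries stood above both other groups, and the depleted libraries were lowest, with no overlap. However, the nearest depleted and Ptgs+/+ libraries held 2 and 3 counts, at the floor. The log2 fold change was 3.66 ± 0.337 over Ptgs+/+ (SE, adjusted p = 6.39e-05) and 4.89 ± 0.433 over depleted tumors (SE, adjusted p = 0.00057), and -1.23 ± 0.551 between depleted and Ptgs+/+ tumors (SE, adjusted p = 0.214). It shared 116 of its 603 3′-end windows with Klra7.

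Klra4 (chr6:130043731-130067271), the other activating member, had a different pattern, with counts of 3235, 2461, 2670 and 2082 in Ptgs+/+ tumors, 1176, 1083 and 1415 in Ptgs-/- tumors, and 1334, 1763 and 1002 after NK cell depletion. Every Ptgs+/+ library lay above every other library, and the 2 Ptgs-/- groups overlapped. The mean was 239 ± 16.9 CPM (SD, n = 4) in Ptgs+/+, 128 ± 16.1 CPM (SD, n = 3) in Ptgs-/- and 135 ± 32.3 CPM (SD, n = 3) in depleted tumors. From Ptgs+/+ tumors the log2 fold change was -0.96 ± 0.162 in Ptgs-/- (SE, adjusted p = 0.00186) and -0.86 ± 0.162 in depleted tumors (SE, adjusted p = 0.00549), both past the adjusted p but short of the fold minimum. Between the 2 Ptgs-/- groups it was -0.10 ± 0.170 (SE, adjusted p = 0.865), and 0.060 without depleted replicate 2. Klra4 was present at 99.5 to 163 CPM in the depleted tumors, in which Ncr1 had 0 counts. Counts per gene do not show where in Klra4 the reads fall. Whether they stand for Ly49D transcripts of lymphocytes was not tested.

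Klra4 also set the family sum. Lymphoid here names the members other than Klra2 and Klra17, by their known expression, and is not drawn from these values. It made up 98.1% ± 0.490 (SD, n = 4) of the summed counts of the 7 lymphoid members in Ptgs+/+, 81.1% ± 6.27 (SD, n = 3) in Ptgs-/- and 98.7% ± 0.613 (SD, n = 3) in depleted tumors. The 7-member sum was 244 ± 16.3, 158 ± 14.7 and 137 ± 31.9 CPM (SD) in these groups, which gives a log2 ratio of the means of -0.62 for Ptgs-/- over Ptgs+/+, 0.21 for Ptgs-/- over depleted and -0.84 for depleted over Ptgs+/+ tumors. Without Klra4, a choice made after seeing the data, the sum of the other 6 was 4.54 ± 1.03, 29.8 ± 10.6 and 1.70 ± 0.438 CPM (SD), with log2 ratios of 2.72, 4.13 and -1.41. The direction of the family sum between Ptgs-/- and Ptgs+/+ tumors therefore turned on 1 member. No test was made of these sums, as they are scores over chosen members.

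**Figure D4:**
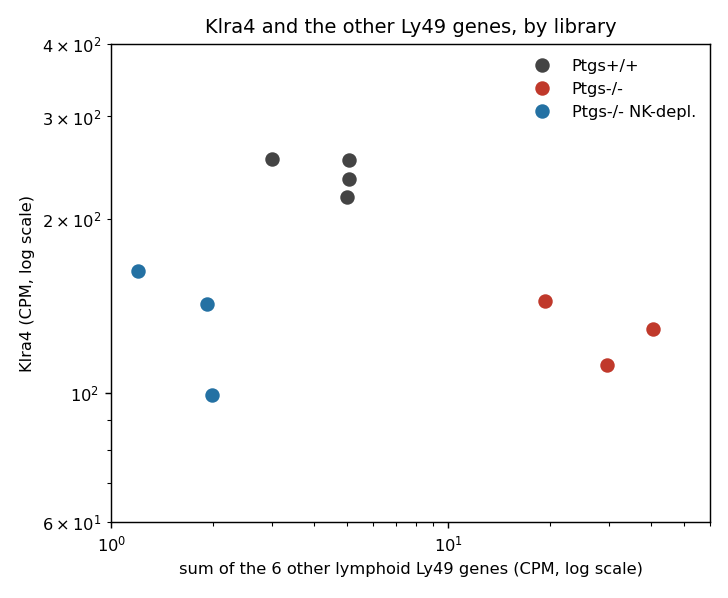
Klra4 level (y axis, CPM, log scale) against the summed level of the 6 other lymphoid Ly49 genes (x axis, CPM, log scale), 1 point per library, coloured by group. Klra4 is highest in the 4 Ptgs+/+ libraries, and the 3 Ptgs-/- libraries lie to the right, with sums of 19.4 to 40.5 CPM against 1.20 to 1.99 CPM after NK cell depletion at Klra4 levels that overlap.

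The 6 members were also set against NK cell transcripts, library by library. For each count of Ncr1 there were 4.14 to 5.91 counts of the 6 members in Ptgs+/+ libraries and 5.77 to 7.9 in Ptgs-/- libraries. For each count of Klrb1c, which encodes NK1.1, there were 2.07 to 2.6 and 2.29 to 2.67, and both ratios overlapped between these groups. In the depleted libraries, with 4, 11 and 3 counts of Klrb1c, the latter ratio was 4.5, 1.18 and 6.67, and with Ncr1 at 0 the former could not be formed. The 6-member sum correlated most closely with Ncr1 (Pearson's r = 0.982), Il2rb (0.981), Klrb1c (0.979), Samd3 (0.976) and Klrc2 (0.974) among the genes tested, on log2(CPM + 1) over the 10 libraries, a description in which the libraries share their groups. With Spearman's rho or a pseudocount of 0.1, 1 of these 5 genes stayed among the 5 closest. Klra4 alone was closest to Rps21 (0.988), Zfp697 (0.984), Ppa2 (0.983), Hnrnpc (0.979) and S100a6 (0.978), and the 7-member sum to S100a11 (0.977), Hapln4 (0.963), Runx3 (0.960), Cdkn3 (0.953) and Pdia6 (0.952). None of these 10 genes was on the NK cell marker list, and by Spearman's rho 2 of the 5 stayed closest to Klra4 and 1 of the 5 to the 7-member sum.

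The makeup of the 6-member sum differed after depletion. Klra3 made up 18.6% ± 2.96 (SD, n = 4) of the 6-member counts in Ptgs+/+ and 17.6% ± 1.40 (SD, n = 3) in Ptgs-/- tumors, but 51.7% ± 16.3 (SD, n = 3) in depleted tumors, where 38.9% was the lowest library. Klra1 made up 19.1%, 8.29% and 26.6% in the same order. Klra9 went from 17.1% and 22.9% to 0%, and Klra7 from 22.0% and 19.2% to 6.27%. The depleted libraries held 13 to 20 counts of the 6 members together, so these shares rest on few counts. Markers of T cells were present in the depleted tumors, at a summed 13.3 to 24.8 CPM against 7.42 to 9.00 CPM in Ptgs+/+ and 22.5 to 58.2 CPM in Ptgs-/- tumors, and the ILC1-like list was at 15.3 to 20.3, 13.8 to 16.4 and 12.4 to 24.7 CPM. Of 7 T cell markers tested, 6 were called higher in Ptgs-/- than in Ptgs+/+ tumors, and against depleted tumors 3 were higher at an unadjusted p under 0.05 and none was called by edgeR. Their part in the Ly49 values was not tested.

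The myeloid contrasts were both detected in all 10 libraries. Klra2 was counted 124, 98, 84 and 78 times in Ptgs+/+ tumors, 142, 245 and 285 times in Ptgs-/- tumors, and 122, 149 and 106 times after NK cell depletion. In CPM the groups did not overlap, with the depleted tumors between the other 2. The mean was 8.82 ± 1.27 CPM (SD, n = 4), 22.9 ± 4.77 CPM (SD, n = 3) and 12.4 ± 1.69 CPM (SD, n = 3). A log2 fold change of 1.32 ± 0.183 for Ptgs-/- over Ptgs+/+ (SE, adjusted p = 0.000629) passed the adjusted p and fell short of the fold minimum. It was 0.85 ± 0.196 over depleted tumors (SE, adjusted p = 0.0652) and 0.46 ± 0.187 for depleted over Ptgs+/+ tumors (SE, adjusted p = 0.133). Among the genes whose levels were closest to it were Cyfip2 (r = 0.969) and Cd300e (0.966). Macrophage and monocyte markers had summed levels of 1281 to 1547 CPM in Ptgs+/+, 2135 to 3405 CPM in Ptgs-/- and 2016 to 2236 CPM in depleted tumors, and 2 of 8, Ccr2 and Ly6c2, were called higher in Ptgs-/- than in Ptgs+/+ tumors. Their part in the Klra2 values was not tested.

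Klra17 was scarce, at 8, 13, 17 and 7 counts (Ptgs+/+), 15, 12 and 30 (Ptgs-/-) and 17, 16 and 18 (NK cell-depleted). The Ptgs-/- libraries overlapped both other groups. None of its 3 log2 fold changes passed the adjusted p: 0.84 ± 0.379 for Ptgs-/- over Ptgs+/+ (SE, adjusted p = 0.137), 0.18 ± 0.391 for Ptgs-/- over depleted (SE, adjusted p = 0.896) and 0.66 ± 0.384 for depleted over Ptgs+/+ tumors (SE, adjusted p = 0.304). The second became -0.14 without Ptgs-/- replicate 3. Sesn2 (r = 0.955), Gna14 (0.945) and Zfp87 (0.935) were closest to it, 1 of them also by Spearman's rho. Of 5 plasmacytoid dendritic cell markers, 3 passed the adjusted p as higher in Ptgs-/- than in Ptgs+/+ tumors and none the fold minimum. Siglech, a defining marker, was at 1.75 ± 0.446, 4.45 ± 1.08 and 3.57 ± 0.698 CPM (SD), with a log2 fold change of 1.28 ± 0.266 in that comparison (SE, adjusted p = 0.00556). The summed level of the 5, 561 to 639 CPM in Ptgs+/+, 649 to 809 CPM in Ptgs-/- and 635 to 747 CPM in depleted tumors, was mostly Tcf4, with group means of 536, 557 and 543 CPM. Cox6a2, also on the list, had means of 2.78, 7.86 and 45.5 CPM and was called higher in depleted tumors than in either other group. The 5 skeletal muscle markers were called higher in the same 2 comparisons, and which cells the Cox6a2 counts came from was not tested. The part of plasmacytoid dendritic cells in the Klra17 values was not tested.

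Of the 5 Klra genes outside the members, Klra6 had 3 to 10 counts in every library, and the groups overlapped. Klra5 gave 2, 1 and 3 counts in Ptgs-/- tumors and 0 in the other 7 libraries. Klra14-ps gave 0, 2 and 3 counts in Ptgs-/- tumors and Klra10 gave 2 counts in 1 Ptgs+/+ and 1 Ptgs-/- library each, with 0 elsewhere. Klra11-ps was at 0 throughout. Adding all 5 moved the 7-member sum to 245, 159 and 137 CPM.

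The molecules that Ly49 receptors bind and signal through were measured in the same libraries. Of the 6 class I genes and assembly factors, 5 passed the adjusted p with higher levels in Ptgs-/- than in Ptgs+/+ tumors, and 1 of these, the peptide transporter gene Tap1 (named for this count, after its values were seen), also passed the fold minimum (log2 fold change 1.62). H2-K1, a classical class I heavy chain and Ly49 ligand, was at 897 ± 138, 2055 ± 514 and 1287 ± 43.4 CPM (SD), a log2 fold change of 1.13 ± 0.161 in Ptgs-/- over Ptgs+/+ (SE, adjusted p = 0.0007). H2-D1, the other, had a log2 fold change of 1.13 ± 0.182 (SE, adjusted p = 0.00141), and B2m, their light chain, 1.07 ± 0.137 (SE, adjusted p = 0.000425). Tapbp, which helps load peptides, had 0.74 ± 0.163 (SE, adjusted p = 0.00778). Against depleted tumors none of the 6 passed the adjusted p in edgeR's test, and 4 were higher at an unadjusted p under 0.05.

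Of the 10 signalling partners, 9 passed the adjusted p as higher in Ptgs-/- than in Ptgs+/+ tumors and 1, the T and NK cell kinase gene Zap70 (named for this count, after its values were seen), was also past the fold minimum (log2 fold change 2.05). Tyrobp, the adaptor of Klra4 and Klra8, had a log2 fold change of 0.57 ± 0.118 (SE, adjusted p = 0.0055), and Ptpn6, a phosphatase of the inhibitory members, of 1.09 ± 0.148 (SE, adjusted p = 0.000589). Ptpn11, the other phosphatase, was the partner that did not pass, at 97.0 ± 8.38 and 92.4 ± 4.43 CPM (SD) and a log2 fold change of -0.13 ± 0.0933 (SE, adjusted p = 0.358). Fcer1g, another adaptor, had a log2 fold change of 0.69 ± 0.129 (SE, adjusted p = 0.00322). Tyrobp, Fcer1g and Ptpn6 are also expressed by myeloid cells. Against depleted tumors none of the 10 passed in edgeR's test, and 7 were higher at an unadjusted p under 0.05. Among the other lectin-like receptors of the NK gene complex, 10 of 13 were tested. In Ptgs-/- tumors 8 were called higher against Ptgs+/+ and 8 against depleted tumors, with 7 genes in both counts. Klrc1, an inhibitory chain that pairs with Klrd1, was at 5.77 ± 1.19, 25.8 ± 12.7 and 0.431 ± 0.121 CPM (SD), with a log2 fold change of 2.10 ± 0.288 over Ptgs+/+ (SE, adjusted p = 0.000605) and 5.84 ± 0.439 over depleted tumors (SE, adjusted p = 0.000174). Its partner Klrd1 had log2 fold changes of 0.90 ± 0.359 (SE, adjusted p = 0.0933) and 1.90 ± 0.413 (SE, adjusted p = 0.0479) in the same order. Those of the activating chain Klrc2 were 2.62 ± 0.351 (SE, adjusted p = 0.000546) and 4.69 ± 0.467 (SE, adjusted p = 0.000971), and those of the activating receptor Klrk1 (NKG2D) 1.88 ± 0.277 (SE, adjusted p = 0.000867) and 2.26 ± 0.313 (SE, adjusted p = 0.0036).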

How the data were processed

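RNA was prepared from whole tumors, and libraries were made from transcript 3′ ends with the QuantSeq FWD kit. The authors trimmed the reads (BBDUK for the first 12 bases and contaminants, fqtrim and cutadapt for polyG and polyA tails), used STAR for alignment to GRCm38, and assigned reads to Ensembl release 86 genes with featureCounts. The deposited values are raw counts per gene, 1 column per tumor. Settings for strand and for reads that map to several genes are not given in the sources used here, so counts of near-identical copies, such as Klra3 and Klra9, are uncertain. Of 45706 identifiers, 45143 were named through GENCODE M21.

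Counts were analysed with edgeR 4.0.16 in R 4.3.3: filterByExpr kept 14550 genes, TMM set the factors, and 1 quasi-likelihood model of the 10 libraries held the 3 groups, with Benjamini-Hochberg adjustment over all genes tested. A call needed an FDR of 0.05 or less and a log2 fold change of 1.5 or more in either direction, the study's thresholds. CPM are scaled by library total. Libraries held 8150556 to 12839174 counts, and intervals and the floor of 3 counts cover counting error only. On simulated counts for Ptgs-/- against Ptgs+/+, 186 of 200 genes changed by a log2 fold change of 2 were recovered among 14339 genes, with 3 false calls. Sequences were compared with Biopython 1.88. Samples were grouped by the submitters' titles. The labels list separate tumors but not whether cells came from separate cultures, so p-values measure the spread between these tumors.

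The members and lists were chosen with earlier results of these data known. Named genes are all members, every other Klra gene, at most 4 genes of each of 3 pathway lists, those with the highest mean CPM (Zap70, Tap1 and markers behind a small count were named after their values were seen), and the genes closest to a sum or member by Pearson correlation of log2(CPM + 1). Markers shown beside results come from lists for 9 cell types. Alternatives were DESeq2 1.42.0, library size alone, other filters, test and threshold, the experiment code, a block for the label number, leaving out single libraries, and other sums. Sums and closest genes without Klra4, and for Klra4 alone, were added after seeing the data. Some of the genes that fall under the naming rule are not reported here.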

Additional observations from a re-analysis of the deposited data

Results flagged for a closer look

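Among the 11 groups of 4 Ptgs+/+ values examined, 2 held a library far from the other 3. Klra13-ps was at 0.732 CPM in Ptgs+/+ replicate 4, the library of the second experiment code, and the gap to the nearest library was 0.897 of the whole range, above the 95% limit for 4 values. It stands for 7 counts against 3 or 4. The sum of the 6 lymphoid members without Klra4 was 2.99 CPM in Ptgs+/+ replicate 2, below the other 3, with a gap of 0.967 of the range. Chance alone gives such a gap in about 1 of 20 groups. Without Ptgs+/+ replicate 2, the log2 ratio of that sum was 2.56 for Ptgs-/- over Ptgs+/+ tumors and -1.57 for depleted over Ptgs+/+ tumors.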

How the results depend on the processing

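Over the single members, 485 of 513 values under an alternative kept their direction and side of the threshold, 12 passed it newly, 10 lost it and 6 changed sign. With at least 10 counts required in every library, 0 members were called by edgeR in each comparison, since only Klra2 and Klra4 were then tested. With only the groups compared in the fit, 0 of the 3 members tested were called by edgeR between depleted and Ptgs+/+ tumors. Leaving out each library, the count called ranged from 5 to 6 for Ptgs-/- over Ptgs+/+, from 5 to 6 over depleted tumors and from 1 to 3 for depleted against Ptgs+/+ tumors. The sum of all 9 members gave a log2 ratio of -0.47 for Ptgs-/- over Ptgs+/+ tumors, against -0.62 for 7. The sum without Klra4 gave 2.72, 4.13 and -1.41, because Klra4 held most of the counts. The sign changes were in log2 fold changes near 0. Leaving out single libraries, Klra4 between the 2 Ptgs-/- groups ranged from -0.27 to 0.060, Klra17 there from -0.14 to 0.43 (and -0.14 in the first code alone), and Klra3 between depleted and Ptgs+/+ tumors from -0.39 to 0.31. The cause of these was not tested.

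The label numbers were not taken as pairs, since not every same-number pair deviated together: the correlation of their deviations lay between -0.244 and 0.355 over 11 pairs, 4 of them over 0.1, although 6 of 10 libraries correlated best with their own number. With the replicate number as a block, 6, 5 and 2 members were called, and Klra3 between depleted and Ptgs+/+ tumors went to -0.054.

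Depth limits the lymphoid members other than Klra4, which had at most 18 counts in any Ptgs+/+ library and at most 14 in any depleted one.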

Other observations

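Skeletal muscle markers stood apart in the NK cell-depleted tumors. Their summed level was 2027 to 4779 CPM there, against 15.9 to 144 CPM in Ptgs+/+ and 90.3 to 323 CPM in Ptgs-/- tumors, and all 5 were called in both comparisons with depleted tumors. Neutrophil markers summed to 349 to 582 CPM in Ptgs+/+, 66.3 to 93.5 CPM in Ptgs-/- and 121 to 175 CPM in depleted tumors, and 3 of the 5 tested (Mmp9, S100a8 and S100a9) were called lower in Ptgs-/- than in Ptgs+/+ tumors. The other 2 did not pass the test there: Csf3r had a log2 fold change of 0.61 (adjusted p = 0.123) and Retnlg of 0.28 (adjusted p = 0.668), and Retnlg was called higher in depleted than in Ptgs+/+ tumors (1.77, adjusted p = 0.0139). The part of either cell type in the Klra4 counts was not tested.

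Melanocytic markers summed to 20.6 to 36.4 CPM in Ptgs+/+, 27.9 to 33.7 CPM in Ptgs-/- and 27.8 to 31.3 CPM in depleted tumors, and 2 of 6 were tested, with 0 called by edgeR in any comparison and 0 at an unadjusted p under 0.05. Type 1 dendritic cell markers summed to 42.9 to 50.3, 75.2 to 117 and 81.9 to 89.3 CPM in the same order, and 2 of 5 (Clec9a and Xcr1) were called higher in Ptgs-/- than in Ptgs+/+ tumors.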
